A study of Mus musculus with 4 samples.

Results

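The 10 genes described here are the 4 genes of the ID (inhibitor of DNA binding) family, Id1, Id2, Id3 and Id4, the inhibitory Smad genes Smad6 and Smad7, and the ligand genes Bmp4, Nodal, Lefty1 and Lefty2. They were taken by symbol from a table of 19991 genes, and all 10 were found in it. The cells were mouse spermatogonia, the dividing germ cells of the testis, grown in vitro. Differentiating spermatogonia (dSG) had been kept with retinoic acid (RA) for 36 h, and undifferentiated spermatogonia (SG) had been given DMSO, a common solvent for RA. There were 2 RNA-seq libraries of each, dSG replicates 1 and 2 and SG replicates 1 and 2, all labelled as wild type C57BL/6. The study's methods name other mice as the source of the cultures, DBA pups or pups of DBA crossed with GFP mice in the first week after birth, sorted for CD9 and against c-Kit and expanded with FGF, LIF, GDNF and EGF. RA was added in Matrigel-coated dishes, and the labels and the methods give its concentration in different units. No source says whether libraries of the same group were separate cultures, and every p-value below measures only the spread between these libraries.

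Ligands of the bone morphogenetic protein (BMP) and wider TGF-beta family bind a pair of type I and type II receptor kinases, which phosphorylate receptor Smads. These bind Smad4, enter the nucleus and switch on target genes, among them the Id genes after BMP and the inhibitory Smads after most ligands of the family. Smad6 and Smad7 then block the receptors, and Lefty1 and Lefty2, which are induced by Nodal, block Nodal outside the cell, so these genes form the negative feedback of the pathway. ID proteins hold a helix-loop-helix domain without the basic stretch that contacts DNA. They pair with E proteins and keep them from DNA. In the mouse testis Id4 marks spermatogonial stem cells.

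The promoters of 6 of the 10 genes were in the RefSeq table used (Id2, Id3, Id4, Smad6, Bmp4 and Nodal), and the 250 bases before each RefSeq start were searched on both strands for GGCGCC, a GC-rich Smad motif that is its own reverse complement, and for CAGAC or GTCTG, the Smad box. Id2 and Id4 held GGCGCC, and Id3 held the Smad box, 167 and 68 bases before its RefSeq start. Over all 32851 promoter windows, 9.59% held GGCGCC and 42.2% held the Smad box. The sequences of the genes with the GC-rich motif are shown because these ID genes had opposite signs of fold change, with the motif in capitals. Both are from RefSeq on GRCm38.p6. For Id2 a stretch of 30 bases is shown, on the minus strand at chr12:25096306-25096335, and for Id4 the whole 250 bases, on the plus strand at chr13:48260866-48261115. A match is a description of the letters and says nothing of binding in these cells.
Id2: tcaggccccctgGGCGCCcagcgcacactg
Id4: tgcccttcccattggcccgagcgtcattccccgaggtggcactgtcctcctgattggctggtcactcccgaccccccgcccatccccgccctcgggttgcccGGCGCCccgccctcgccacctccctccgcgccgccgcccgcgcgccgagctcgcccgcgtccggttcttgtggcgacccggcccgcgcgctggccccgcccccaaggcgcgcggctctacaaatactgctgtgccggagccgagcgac
The motif began 231 bases before the RefSeq start of Id2 and 148 bases before that of Id4. The RefSeq starts used here differ from the GENCODE gene starts printed below for some genes. Those of Id2 and Id3 lie 1048 and 325 bases inside the GENCODE gene, where 161 and 250 of the 250 window bases are exon, so these windows are not upstream of the whole gene. That of Id4 lies outside its GENCODE gene. Smad6, Bmp4 and Nodal held neither motif in this window.

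The libraries held 22307745 and 26921478 reads in genes for dSG and 7484560 and 26953654 for SG. Their labels fitted the marker genes: Kit was at 5825 and 5921 normalized counts in dSG against 319 and 347 in SG, and Stra8, the RA-induced gene of meiotic entry, at 12205 and 12236 against 134 and 37.8. A normalized count is the reads of a gene divided by a size factor of the library. SG replicate 1 stood apart from SG replicate 2. Lars2 took 3.66% and 5.60% of the reads in the dSG libraries, 18.3% in SG replicate 1 and 3.94% in SG replicate 2, and the part of this in the values below was not tested. The difference between the dSG libraries had a Spearman rho of 0.28 with the GC content of the genes, against 0.73 between the SG libraries. Both are over 14102 genes, and genes are not independent replicates. Among the 10 genes, SG replicate 1 was above SG replicate 2 by 2.61 times for Id1, 2.85 for Id3, 1.81 for Id4, 3.41 for Smad6 and 1.82 for Smad7. Id2, Bmp4 and Nodal had SG ratios of 0.942, 1.01 and 1.04.

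Of the 10 genes, 7 passed the filter on low values (20 or more normalized counts in 2 or more libraries) and were tested: the 4 ID genes, Smad6, Smad7 and Bmp4. Id2 passed through the dSG libraries alone and Bmp4 through the SG libraries alone. Only Id2 was called by limma at an adjusted p under 0.05, and it was higher in dSG. Over all 14108 genes tested, 856 (6.07%) were called, 164 (1.16%) of them higher and 692 (4.91%) lower in dSG, and since Id2 had to differ to enter the test, its call is not read against that share. Both dSG libraries were below both SG libraries for 5 of the 7 genes, Id3, Id4, Smad6, Smad7 and Bmp4, and above them for Id2. Over all tested genes the shares were 32.7% below and 33.2% above. For Bmp4 and Id2 the entry through 1 group alone fixed this order, so it is no result for either. On counts the result depended on the tool. DESeq2 on the recovered reads called 5 of the 7 (Id2 higher, and Id3, Id4, Smad6 and Smad7 lower) beside 13.7% of all genes, while edgeR called Id2 alone beside 7.40%. All fold changes below are dSG over SG on the log2(normalized count + 4) scale with the limma standard error, which understates the change of low genes.

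**Figure D1:**
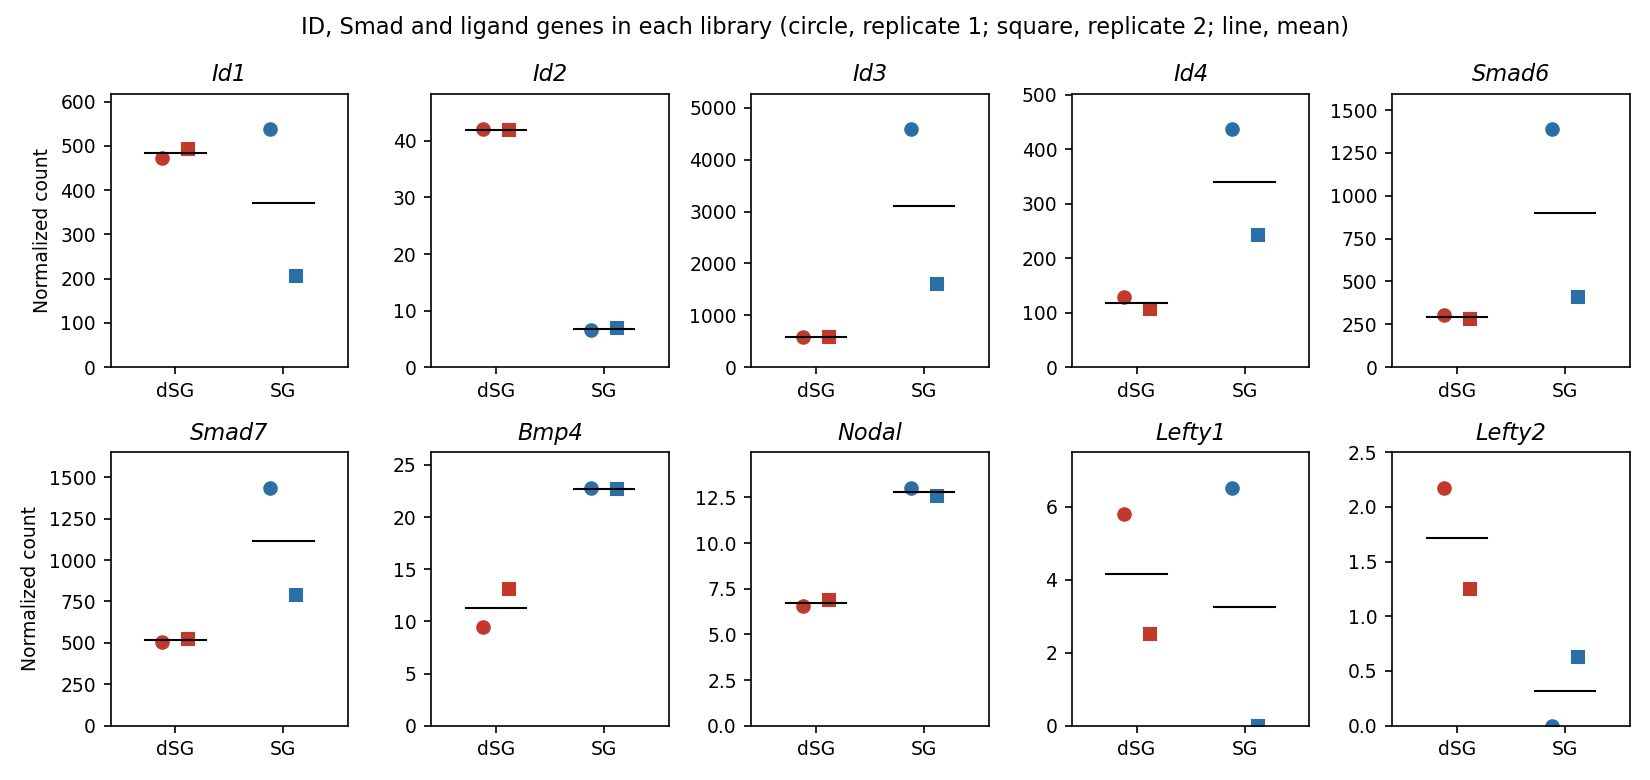
Normalized counts of the 10 genes in dSG (red, left) and SG (blue, right), each panel on its own linear axis from 0, with circles for replicate 1, squares for replicate 2 and lines for the mean of 2 libraries. The dSG libraries lie close together for most genes, and Id3, Smad6 and Smad7 are lower in dSG with SG replicate 1 far above SG replicate 2.

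Id2 rose in dSG. It was at 42.1 and 41.9 normalized counts in dSG and at 6.52 and 6.92 in SG, from 58 and 67 reads and from 2 and 11 reads. The groups were apart by more than the spread within either. Id2 entered the test through the dSG libraries alone, so a gap was fixed in advance. The SG spread rests on few reads, and 6.52 in SG replicate 1 was under that library's value for 3 reads, 9.78. The log2 fold change was 2.10 ± 0.30 (SE, n = 2 each, 95% CI 1.32 to 2.89), with a limma adjusted p of 0.0346. Counted over summed reads and size factors, dSG held 6.13 times the Id2 reads of SG, with an exact conditional 95% interval of 3.45 to 11.8 that covers counting error only. The call was lost without dSG replicate 1 (2.10, adjusted p 0.282), without dSG replicate 2 (2.10, adjusted p 0.298) and with quantile normalization (2.29, adjusted p 0.0615). Id2 encodes an inhibitor that holds E proteins away from DNA, and it was the ID gene with the lowest level per kb in every library. The gene lies at chr12:25093799-25097140 (GRCm38), on the minus strand.

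Id3 was the most abundant ID gene in SG. It was at 577 and 573 normalized counts in dSG, against 4588 and 1608 in SG. Both dSG libraries were below both SG libraries, and the SG libraries were far apart. The log2 fold change was -2.23 ± 0.53 (SE, 95% CI -3.65 to -0.82), and the adjusted p of 0.0885 missed the threshold. Without SG replicate 1 it was -1.48 and without SG replicate 2 -2.99. It was -2.24 without dSG replicate 1 and -2.23 without dSG replicate 2. With the GC trend of each library removed, Id3 was at -1.83 with an adjusted p of 0.0248. In that fit 2 of the 7 genes, Id2 and Id3, were called beside 21.4% of all genes. Id3 lies at chr4:136143497-136145755, on the plus strand.

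Id4 was at 129 and 107 normalized counts in dSG, against 437 and 242 in SG. All dSG values were below all SG values. The log2 fold change was -1.44 ± 0.36 (SE, 95% CI -2.39 to -0.48), and the adjusted p of 0.0962 missed the threshold. Without SG replicate 1 it was -1.01 and without SG replicate 2 -1.86. With the GC trend removed it was -2.0 (adjusted p 0.055). Id4 has the lowest GC content of the 10 genes, 42.6%. The gene, at chr13:48261228-48266026 on the plus strand, shares 6.57% of its exon bases with genes on the other strand, A330033J07Rik and Gm49291. The library kit keeps strand, but how the counting used strand is not stated in what was read here, and reads of these genes cannot be assigned with certainty. Gfra1, the GDNF receptor of stem cells and a called gene, was at 1667 and 1629 in dSG against 4491 and 4414 in SG, a log2 fold change of -1.43.

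Id1 was the ID gene whose groups overlapped. It was at 473 and 493 normalized counts in dSG, against 538 and 206 in SG. The log2 fold change was 0.53 ± 0.49 (SE, 95% CI -0.78 to 1.84), with an adjusted p of 0.501. Its sign turned with the SG library used: it was 1.21 without SG replicate 1, which passed, and -0.15 without SG replicate 2. Id1 lies at chr2:152736251-152737410, in 1 exon stretch on the plus strand.

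The make-up of the ID family within a library differed between the groups, a comparison chosen after the values were seen. Per kb of exon, Id1 gave 52.2% and 53.8% of the summed ID level in dSG, against 14.8% and 15.6% in SG. Id3 gave 41.3% and 40.5% in dSG, against 81.5% and 78.7% in SG. These shares lay within 3 points of each other within each group, although the summed level per kb was 781 and 790 in dSG and 3142 and 1142 in SG. Id4 gave 4.30% and 3.52% in dSG, against 3.61% and 5.50% in SG, so its shares overlapped. Id2 gave 2.21% and 2.18% in dSG, against 0.0851% and 0.249% in SG. The log2 ratio of Id1 to Id3 per kb was 0.34 and 0.41 in dSG, against -2.47 and -2.34 in SG. Id1 and Id3 have GC contents of 54.7% and 55.6%, and the part of GC content in this ratio was not tested. The order of the levels per kb was Id1, Id3, Id4 and Id2 in both dSG libraries, and Id3, Id1, Id4 and Id2 in both SG libraries. The lead of Id1 in dSG, the size of the shares and the sign of the ratio there rest on the length used. The merged exons of Id3 span 1791 bases and its longest transcript 1278, while both are 1160 for Id1. In normalized counts Id3 was above Id1 in every library, at 577 and 573 against 473 and 493 in dSG. No test was made, since an exact permutation test of 2 libraries against 2 cannot give a two-sided p below 0.333.

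**Figure D2:**
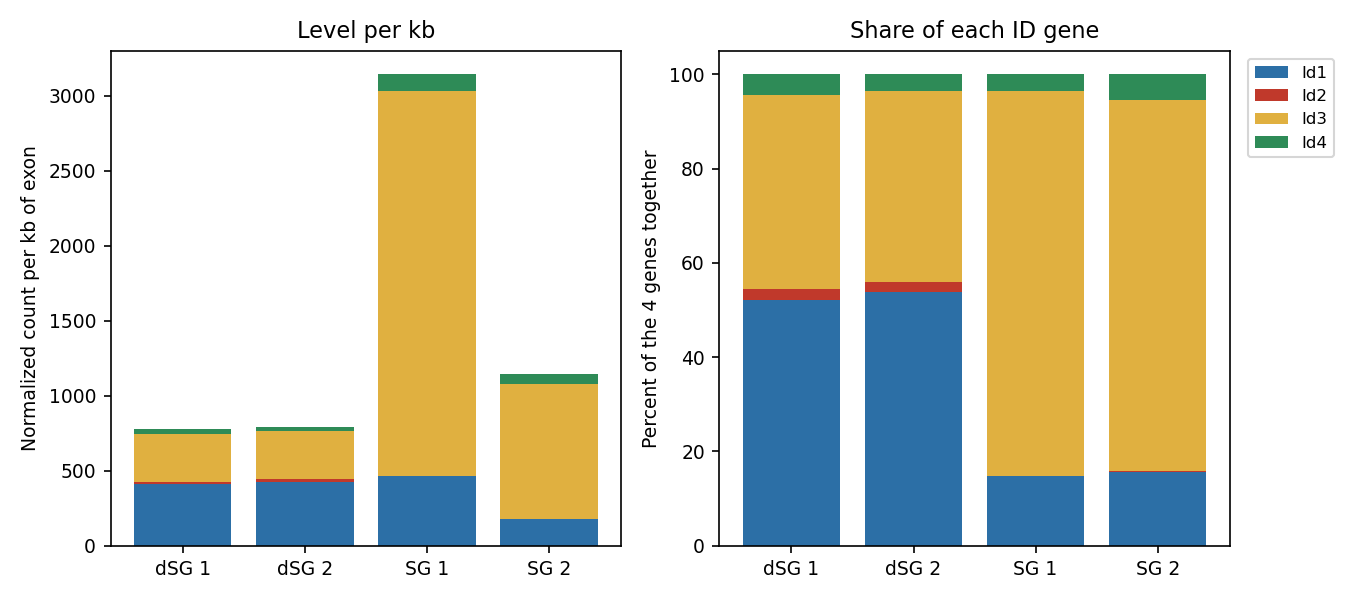
Left, level of the 4 ID genes per kb of exon (normalized count per kb) stacked for each library, dSG before SG. Right, the same as percent of their sum: Id1 is 52.2% and 53.8% in dSG, and Id3 is 81.5% and 78.7% in SG.

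Smad6 and Smad7, the inhibitory Smads, had lower values in dSG and were not called by limma. Smad6, which mainly restrains BMP receptors, was at 306 and 282 normalized counts in dSG, against 1388 and 407 in SG. Both dSG libraries were below both SG libraries, but the SG spread was the widest of the 10 genes by ratio among those with reads in every library. Its log2 fold change was -1.35 ± 0.62 (SE, 95% CI -2.99 to 0.29; adjusted p 0.243). It was -0.47 with SG replicate 1 left out and -2.23 with SG replicate 2 left out. With the GC trend removed it was -0.61 (adjusted p 0.191). Smad7, which restrains all TGF-beta family receptors, was at 507 and 523 in dSG, against 1437 and 792 in SG. It too had no overlap between the groups. Its log2 fold change was -1.04 ± 0.34 (SE, 95% CI -1.94 to -0.15; adjusted p 0.149). It was -0.62 with SG replicate 1 left out and -1.47 with SG replicate 2 left out, and -0.54 with the GC trend removed (adjusted p 0.0512). Smad6 lies at chr9:63953076-64022059 on the minus strand and Smad7 at chr18:75367529-75395935 on the plus strand.

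The ligand genes were near the limit of what could be seen. Bmp4, a BMP ligand, was at 9.43 and 13.1 normalized counts in dSG, against 22.8 and 22.7 in SG, from 13 and 21 reads and from 7 and 36 reads. The groups did not overlap, which the entry of Bmp4 through the SG libraries alone had fixed. The log2 fold change was -0.82 ± 0.32 (SE, 95% CI -1.67 to 0.04; adjusted p 0.198), and it was -0.99 to -0.64 when 1 library was left out. The ratio of reads was 0.504 (exact 95% interval 0.312 to 0.809, counting error only). Nodal, the ligand that acts through Smad2 and Smad3, was at 6.53 and 6.88 in dSG, against 13.0 and 12.6 in SG, with 9 and 11 reads and with 4 and 20 reads. It was under the filter in every library. Its ratio of reads was 0.531 (interval 0.278 to 1.003), and it was not tested.

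Lefty1 and Lefty2, the Nodal inhibitors, were at the floor. Lefty1 was at 5.80 and 2.50 normalized counts in dSG, against 6.52 and 0 in SG, and its groups overlapped. Lefty2 was at 2.18 and 1.25 in dSG, against 0 and 0.629 in SG. Over both libraries of a group Lefty1 had 12 reads in dSG and 2 in SG, with a ratio of 3.82 (interval 0.851 to 35.2), and Lefty2 had 5 and 1, with a ratio of 3.19 (interval 0.356 to 151). A floor of 3 reads is 2.18 and 1.88 normalized counts in the dSG libraries, and 9.78 and 1.89 in the SG libraries, so a difference was not detectable at this depth. Of the longest transcript of Lefty1, 35.5% lies in stretches of 50 bases shared with Lefty2, and 23.3% the other way, so their reads may be split between them.

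**Figure D3:**
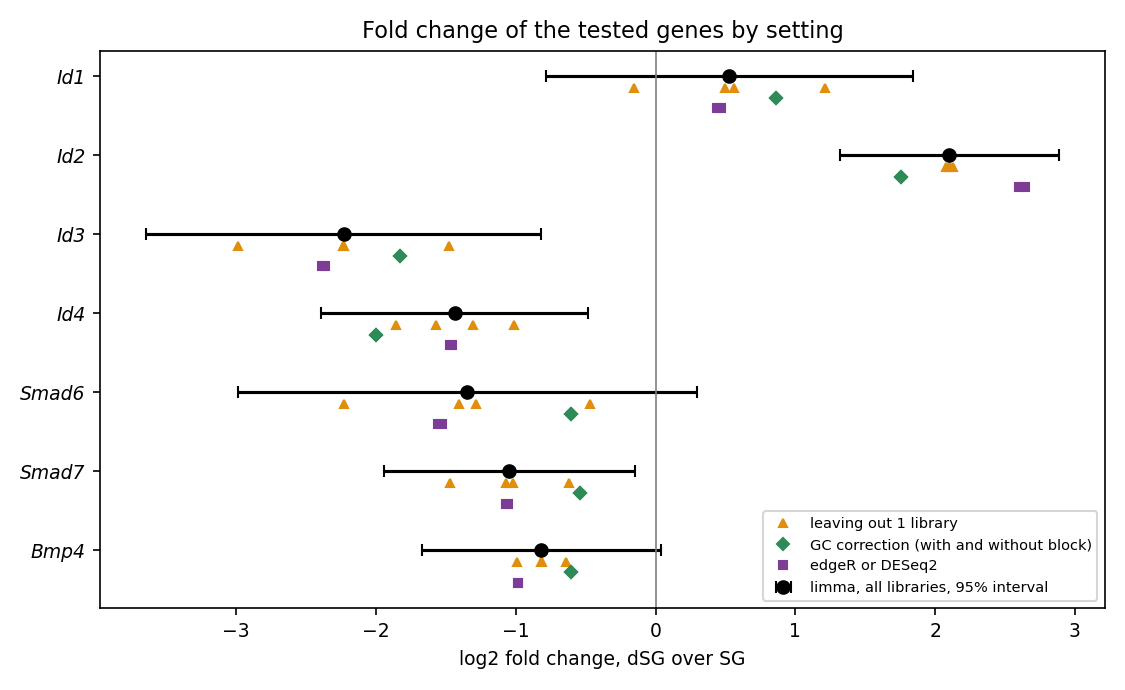
Log2 fold change, dSG over SG, of the 7 tested genes: limma over all libraries with its 95% confidence interval (black), the fits without 1 library each (triangles), the fits with the GC trend removed, with and without the replicate number as a term (diamonds), and edgeR and DESeq2 (squares). Fold changes of Id1 lie on both sides of 0. Those of Id2 lie above 0 and those of the other genes below 0 in each of these fits. The 95% intervals of Id1, Smad6 and Bmp4 include 0.

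The wider pathway was read through 15 lists of genes by role, chosen with earlier results of these data known. They hold 150 genes other than the 10, of which 107 were tested, 26 were called lower and 2 called higher in dSG. The called share is 26.2% of the tested genes, against 6.07% over all genes, and the median log2 fold change was -0.57, against 0.01 over all genes. Of the 28 called genes, 6 (Acvrl1, Foxh1, Sost, T, Tfap2c and Tgfbi) were under 20 in both dSG libraries and passed the filter through the SG libraries alone, so they had to differ. For this reason and because of how the lists were chosen, the called share, the counts and the medians are a description only. They are not a test against all genes. Without dSG replicate 1, 11 of the 28 lost their call, and without dSG replicate 2 also 11, 12 genes in all: Dlx3, Eomes, Foxh1, Fstl1, Gdf10, Pcsk6, Tbx3, Tfap2c, Tgfbi, Tgfbr2, Tgif1 and Thbs1. The E proteins, with which ID proteins pair, were not called: Tcf3, Tcf4 and Tcf12 had log2 fold changes of -0.93, -0.26 and -0.58. Tcf3 was at 6678 and 5780 normalized counts in dSG against 19042 and 7406 in SG. Among the 11 other basic helix-loop-helix genes of spermatogonia listed, 10 were tested and 2 called, both lower, with a median of -0.52. These were the transcription repressors Bhlhe40, at 50.05 and 64.5 in dSG against 635 and 522 in SG, and Bhlhe41, at 82.0 and 70.1 against 1124 and 768.

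Ligands differed by gene. Of 11 tested BMP and GDF ligands, 1 was called higher and 1 lower, with a median log2 fold change of -0.09. Bmp7 fell, at 339 and 360 normalized counts in dSG against 1945 and 1329 in SG (log2 fold change -2.19, adjusted p 0.0277). Gdf10 rose, at 309 and 273 in dSG against 84.7 and 59.8 in SG (1.97, adjusted p 0.0345). Of 5 tested ligands of the TGF-beta, activin and Nodal branch, 2 were called, both lower, with a median of -1.10, which was -0.09 with no filter on low values and -0.48 with a pseudocount of 40. Tgfb1 was at 334 and 343 in dSG against 2108 and 1338 in SG (-2.30, adjusted p 0.03), and Inhbb, the activin beta B subunit, at 34.8 and 20.7 against 303 and 155 (-2.84, adjusted p 0.043, or 0.0564 without the filter).

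Of the receptors, 1 of 6 tested type I genes and 1 of 4 type II genes were called, both lower, with medians of 0.29 and 0.16. The type II median turned to -0.32 with no filter on low values, which adds 1 gene. Acvrl1, a type I receptor of endothelial cells, was at 17.4 and 16.9 normalized counts in dSG against 267 and 179 in SG (log2 fold change -3.40, adjusted p 0.0254). It entered the test through the SG libraries alone, which fixed its order between the groups. With a limit of 40 in every library it was not tested, and 0 type I genes were called. Tgfbr2, the type II receptor of TGF-beta, was at 141 and 175 against 512 and 391 (-1.49, adjusted p 0.0498). Its call was lost with no filter (0.0648), with a limit of 40 in every library, and with pseudocounts of 0.4 (0.0506) and 40 (0.0532). Of 5 tested co-receptors, Tgfbr3 alone was called, at 76.2 and 83.2 in dSG against 551 and 449 in SG (-2.58, adjusted p 0.0254). The list's median was -0.53. None of the 6 receptor Smad genes, Smad4 included, was called by limma, with a median of -0.45. Of the BMP receptor Smads, Smad1 had a log2 fold change of -0.60, Smad5 of -0.88 and Smad9 of -0.89. Smad2 and Smad3, which carry TGF-beta and Nodal signals, were at -0.13 and -0.29, and Smad4, the common partner, at 0.45. The signs of Smad2 and Smad3 turned with the SG library left out.

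Inhibitors of the pathway act outside or inside the cell. Of 13 tested extracellular antagonists 4 were called, all lower, with a median of -1.16: Fst, which binds activin, with 45.0 and 50.1 normalized counts in dSG against 398 and 355 in SG; Fstl1, with 363 and 337 against 1004 and 985; Sost, best known as a Wnt inhibitor, with 5.80 and 2.50 against 192 and 75.5; and Chrd, which binds BMPs, with 141 and 140 against 1017 and 507. Their log2 fold changes were -2.88, -1.50, -3.97 and -2.32, and the calls of Chrd and Sost were lost with a pseudocount of 40 (adjusted p 0.0523 and 0.0621), as that of Chrd was without the filter (0.0563). Chrdl1, a BMP-binding protein named after its values were seen, had the highest log2 fold change of the list, 4.12 (adjusted p 0.1), and was not called. It was at 335 and 393 normalized counts in dSG, against 3.26 and 57.3 in SG. Of 13 intracellular inhibitors, 1 was called, Tgif1, a corepressor of Smads, at 342 and 327 in dSG against 769 and 904 in SG (-1.31, adjusted p 0.0401), and the list's median was -0.05.

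Among the nuclear factors and targets of Nodal signalling, 6 of 9 tested genes were called, all lower, with a median of -2.22. With no filter on low values 13 genes of this list were tested, 5 were called and the median was -0.61, and with a limit of 40 in every library 2 were called. T (brachyury), a T-box factor, was at 6.53 and 6.26 normalized counts in dSG against 212 and 151 in SG (log2 fold change -4.14). Eomes, another T-box factor, was at 21.8 and 20.7 against 108 and 120 (-2.22), Foxa2, a forkhead factor, at 97.9 and 104 against 1255 and 625 (-3.08), and Pcsk6, a protease that cleaves the Nodal precursor, at 68.9 and 53.8 against 284 and 255 (-2.07). The other called genes, named after their values were seen, were Pou5f1, a pluripotency factor (-2.45), and Foxh1, the partner of Smad2 in the nucleus (-2.24). The call of Foxh1 was lost with quantile normalization (adjusted p 0.0615), and that of Pou5f1 without the filter (0.0578). T and Foxh1 were under 20 in both dSG libraries and entered the test through the SG libraries alone. This entry fixed their order between the groups. All 9 had both dSG libraries below both SG libraries, as had 32.7% of all tested genes. Several of these genes answer to other signals as well.

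Of 15 tested BMP targets other than the 10 genes, 4 were called, all lower, with a median of -0.89. They were the homeobox genes Msx2, at 45.0 and 42.6 normalized counts in dSG against 362 and 313 in SG (log2 fold change -2.83), and Dlx3, at 252 and 305 against 1225 and 1036 (-2.01), Tfap2c, a germ cell transcription factor, at 18.9 and 18.8 against 124 and 92.5 (-2.28), and Tbx3, a T-box factor, at 82.7 and 78.2 against 254 and 199 (-1.44). The call of Tbx3 was lost with quantile normalization (adjusted p 0.0519), with no filter (0.0744), with a limit of 40 in every library and with a pseudocount of 40 (0.0514). Of 14 tested TGF-beta targets, 3 were called lower and 1 higher, with a median of -0.70. Snai1, a repressor of cadherin genes, was at 147 and 157 in dSG against 873 and 664 in SG (-2.30), Tgfbi, a matrix protein, at 4.35 and 5.63 against 48.9 and 50.3 (-2.58), and Cdkn1a, an inhibitor of cyclin-dependent kinases, at 71.8 and 69.5 against 606 and 359 (-2.66). Thbs1, which activates latent TGF-beta, rose, at 258 and 265 against 45.6 and 71.1 (2.12, adjusted p 0.0345). Tfap2c and Tgfbi entered the test through the SG libraries alone, which fixed their order between the groups.

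**Figure D4:**
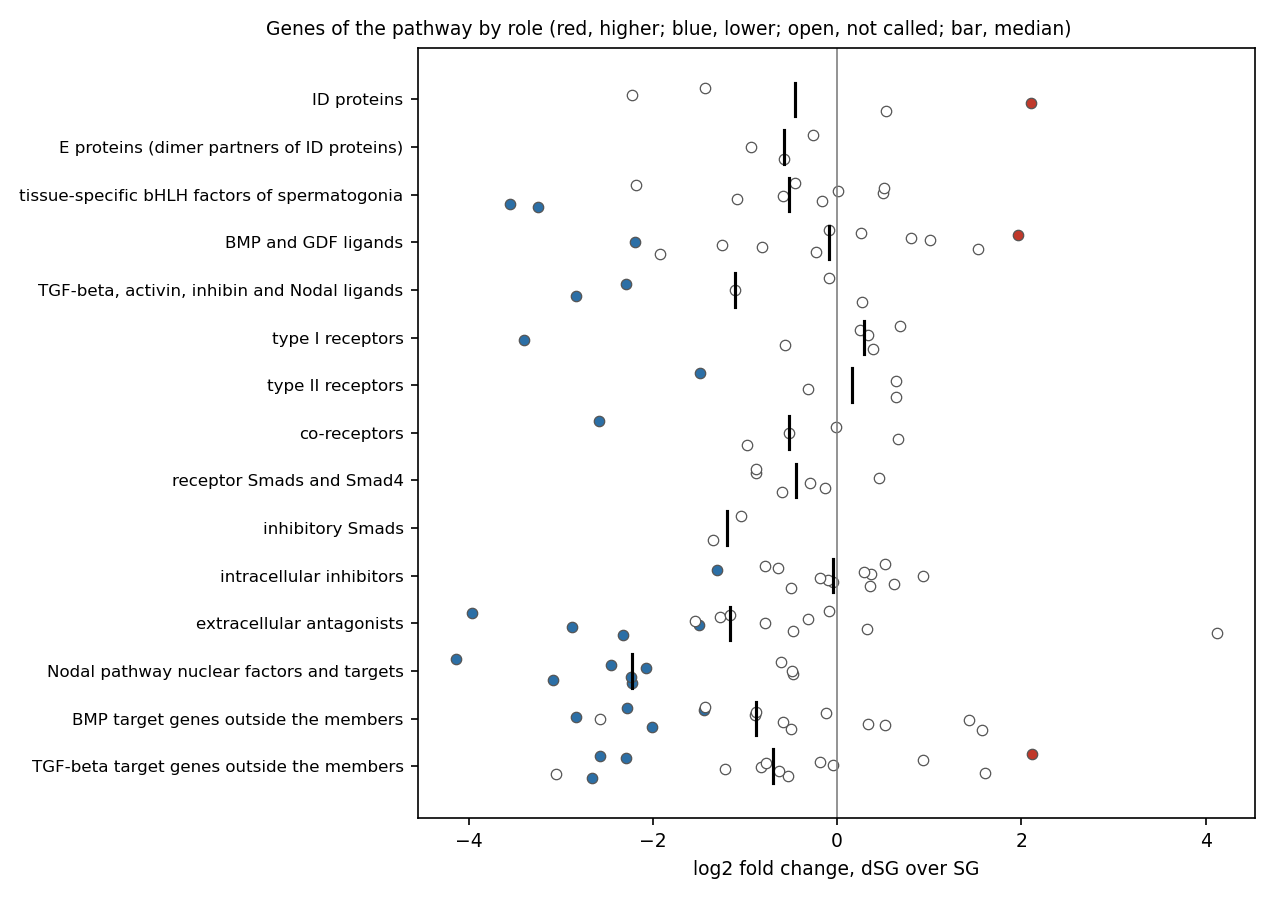
Log2 fold change, dSG over SG, of each tested gene of the pathway, by role (points), with filled points for genes called by limma (red, higher in dSG; blue, lower) and bars for the median of each list. Of 9 Nodal pathway factors and targets 6 are blue, and the inhibitory Smads are open points at -1.35 and -1.04.

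Fewer cells of a type and less RNA per cell cannot be told apart in these bulk libraries. Summed markers of other cells were lower in dSG for fibroblast, Sertoli, endothelial and peritubular myoid lists, higher for Leydig and overlapping for macrophage and blood. Single genes went both ways. Both dSG libraries were above both SG libraries for 1 tested gene each of the fibroblast, Sertoli and endothelial lists. Both were lower for 8, 3 and 3 genes of these lists. Over all tested genes 33.2% were above and 32.7% below. The 17 fibroblast and feeder markers summed to 5068 and 4713 normalized counts in dSG, against 32269 and 12932 in SG, and 2 of the 9 tested were called, both lower. Of that list Dcn, Lum and Col3a1 stayed under 10 in every library. At these low values Dcn and Lum, which were not tested, were higher in dSG. Dcn was at 5.08 and 4.38 in dSG against 0 and 0.629 in SG, and Lum at 8.70 and 6.88 against 0 and 0.629. Col5a1, at 1982 and 1818 in dSG against 19873 and 6355 in SG, gave 39.1% and 38.6% of the sum in dSG and 61.6% and 49.1% in SG. The 11 Sertoli markers summed to 268 and 278 in dSG, against 851 and 547 in SG, with 2 of the 7 tested, Sox9 and Clu, called lower and with Fshr, Dhh, Cldn11 and Rhox5 under 20 throughout. The 5 endothelial markers summed to 215 and 248 in dSG, against 544 and 571 in SG, and 2, Pecam1 and Vwf, were called lower. Leydig markers summed to 370 and 353 against 215 and 318, peritubular myoid markers to 87.0 and 109 against 222 and 125, and macrophage and blood markers to 457 and 437 against 378 and 507. Of the myoid list Acta2, which was not tested, went the other way, at 14.5 and 21.3 in dSG against 0 and 0.629 in SG. Both dSG libraries were below both SG libraries for the 2 tested myoid genes. The part of these markers in the values of the 10 genes was not tested. The 18 germ cell markers summed to 73081 and 76409 in dSG, against 90923 and 79288 in SG.

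The genes whose pattern over the 4 libraries was closest to that of Id4, by Euclidean distance of log2 values less their mean among 14108 tested genes, were Serp2, Epb41l1 and H1f0, at distances of 0.0348, 0.0512 and 0.0591. Serp2 was at 82.7 and 70.7 normalized counts in dSG against 290 and 159 in SG. Closest to Nodal were Ssbp3, Rnf144a and Fn1, at 0.0309, 0.0376 and 0.0460. Ssbp3 was at 2892 and 3023 in dSG against 4670 and 4672 in SG, and the Nodal values rest on few reads. A distance over 4 libraries describes these libraries and carries no test.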

How the data were processed

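Directional paired-end libraries were made by the authors from Trizol-extracted total RNA. Subread (GRCm38) and featureCounts 1.5.3 gave the reads of each gene, and the annotation release and strand setting were not given in the sources used here. The deposited signal is a normalized count, reads divided by the library's size factor, although the table's name says RPKM. Dividing by each library's step gave whole reads for 100% of values at a tolerance of 0.01. Deposited log2 fold changes, standard errors, the test's score, p-values and adjusted p-values are the authors' own results and were not used.

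The 10 genes, the gene lists and the tests were chosen with earlier results of these data known. The 14108 of 19991 genes with 20 or more normalized counts in 2 or more libraries were tested with limma 3.58.1 (trend, condition only; R 4.3.3) on log2(normalized count + 4), with Benjamini-Hochberg adjustment over all of them. Called genes had an adjusted p under 0.05, with a change of 2-fold or more required for the all-gene total. edgeR 4.0.16 (quasi-likelihood, TMM) and DESeq2 1.42.0 were run on the recovered reads. The fits were checked on simulated counts. Exon positions and GC content are from GENCODE on GRCm38. Named genes are the 10, every E protein and receptor Smad, at most 4 called genes of each other list with the smallest p, or otherwise the 2 with the highest mean, the 3 genes nearest to Id4 and to Nodal, and Kit, Stra8 and Gfra1. No library was a copy of another (chi-square over its degrees of freedom, 14.4 for the dSG pair and 244 for the SG pair). Intervals from reads cover counting error only.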

Additional observations from a re-analysis of the deposited data

How the results depend on the processing

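Limma called 856 genes at 2-fold and 1 of the 7 tested genes described here. The genes called came to 320 with a limit of 40 in every library, 1862 with DESeq2, 1706 with the GC trend removed, and 475 to 5141 when 1 library was left out. The fits with the replicate number as a term (replicate block) called 2680, or 2092 with the GC trend removed. The described genes were counted without the 2-fold limit, so their counts are not set against these totals. With quantile normalization 0 were called, and 0 of the 5 still tested with the limit of 40 (which drops Id2 and Bmp4). DESeq2 called 5 beside 13.7% of all genes, and the fit with the GC trend removed 2 beside 21.4%. The replicate block called 5, and 6 with the GC trend removed as well, with no such share given for either. Of those 6, Id1 (0.86), Smad6 (-0.61) and Smad7 (-0.54) were under 2-fold. The call of Id2 was lost without dSG replicate 1 and without dSG replicate 2. Nothing in the labels says that a replicate number pairs the samples, and with 2 pairs the deviations correlated at 0.23 across genes, so the block result rests on a shared number only. Signs turned for Id1 (-0.15 to 1.21 when 1 library was left out), Smad2 (-0.42 to 0.16) and Smad3 (-0.71 to 0.12). Id2, Id3, Id4, Smad6, Smad7 and Bmp4 kept their sign in every setting that tested them. The cause of these differences was not tested. Fits without an SG library take their spread from the dSG libraries alone and treat the lone SG library as varying like them. Depth limits Id2 in SG (2 and 11 reads), Bmp4, Nodal, Lefty1 and Lefty2. SG replicate 1, with 7484560 reads, is the shallowest library.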
